A study of Mus musculus with 12 samples.

Results

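The comparison concerned cells that carried no FoxA2-tagRFP signal, taken from mouse embryos at embryonic day 7.5 (E7.5) whose FoxA2 lacked 10 residues of an alpha helix, against the same sorted fraction of embryos with intact FoxA2. It used the deposited ATAC-seq peak lists of the groups dHx Negative and WT Negative, each 1 list for 2 samples, so 4 of the 12 samples of the study. Lines with the same chromosome, start and end were merged, autosomes were kept, and a peak was called shared when it overlapped a peak of the other list by at least 1 bp. By this rule the dHx Negative list held 48244 peaks and the WT Negative list 38439 peaks, of 249098 peaks in all 6 lists. The other 4 lists came from the Middle and High RFP cells of both genotypes.

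dHx embryos were homozygous for a knock-in allele that joined FoxA2 without the helix residues to the red fluorescent protein tagRFP. WT embryos were homozygous for the same tagged allele with the helix intact, so the controls carried the tag too. Both lines were kept on a mixed C57Bl6/J x CD-1 background. The tissue was the embryo without its extraembryonic portion, of mixed and undetermined sex. About 10 embryos entered a sort, and a library was made from 2000 to 5000 cells. The labels do not say whether the 2 samples of a group came from separate pools of embryos. The Negative gate was set against embryos without the tag and with 1 tagged allele, so it marks absence of the tag signal and no single cell type.

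FoxA2, a forkhead protein, is needed for endoderm, node and notochord, and as a pioneer factor it can bind DNA that is wrapped in nucleosomes. In ATAC-seq a transposase cuts and tags accessible DNA, so a peak marks a region open in at least some of the cells. At this stage cells without FoxA2 are chiefly epiblast, nascent mesoderm and ectoderm, and much of their open chromatin lies at promoters that many cell types share. Fewer cells of a type and weaker opening in each cell cannot be told apart in sorted bulk cells.

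Each peak carries the authors' score, read as −log10 of a p-value or of a q-value, which grows with depth. It was used to rank peaks within a list, so scores printed for both lists do not compare the genotypes. A score limit of 5 in both lists was tried only as an alternative setting. Read totals were not given in the sources used here, so depth is unknown. A background pileup per base, fitted to the steps between the scores, was 1.57 in the dHx Negative list and 1.08 in the WT Negative list. Refitted with the pileup of the lowest score set 1 lower or 1 higher, it was 1.49 and 1.64 in dHx and 1.03 and 1.14 in WT. These values are not an error range. The background measures relative depth if fragment extension and genome size were set alike for both lists. The lowest peak lay 3.83 times above this background in the dHx Negative list and 4.62 times in the WT Negative list. The dHx list was thus the longer one, covered 26.7 Mb against 21.0 Mb in the WT list, and reached weaker peaks. With 1 pooled list per group no difference was tested, no replicate error could be given, and the 95% Clopper-Pearson intervals printed here cover counting error only.

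Both Negative lists were poor in peaks near endoderm genes and rich in peaks near Hox genes, compared with the RFP-positive lists. Peaks were counted for the closest protein-coding gene, up to 100 kb from its body. The 39 measured Hox genes, which set position along the body axis, had 41 peaks in dHx Negative cells and 28 in WT Negative cells, against 8 to 13 in each RFP-positive list. Genes of the definitive endoderm list had 114 peaks in the dHx Negative list and 96 in the WT Negative list. The same genes had 149 to 164 peaks in the RFP-positive lists, although all 4 had fewer peaks in total than the dHx Negative list. Per 1000 autosomal peaks this was 2.36 in dHx Negative and 2.497 in WT Negative cells, against 3.53 to 4.36 in the RFP-positive lists. Visceral endoderm genes had 0.622 peaks per 1000 in dHx Negative cells and 0.546 in WT Negative cells, against 0.815 to 1.32 in the others. Node and notochord genes did not differ in this way, with 1.64 in dHx Negative and 2.00 in WT Negative cells, against 1.57 to 2.22. Epiblast genes were not richer in peaks in Negative cells, with 1.93 in dHx and 2.16 in WT, against 2.04 to 2.45 in the RFP-positive lists. Hand1, a bHLH gene of lateral mesoderm, had 4 peaks in the dHx Negative list and 6 in the WT Negative list, while the dHx Middle list held 1 and the other 3 lists held 0. The extraembryonic ectoderm and trophoblast list, which shares genes such as Hand1 with lists of embryonic tissue, had 95 peaks in dHx Negative and 71 in WT Negative cells. The RFP-positive lists had 56 to 71. Per 1000 peaks it was 1.97 in dHx Negative and 1.85 in WT Negative cells, against 1.27 to 1.94.

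**Figure D1:**
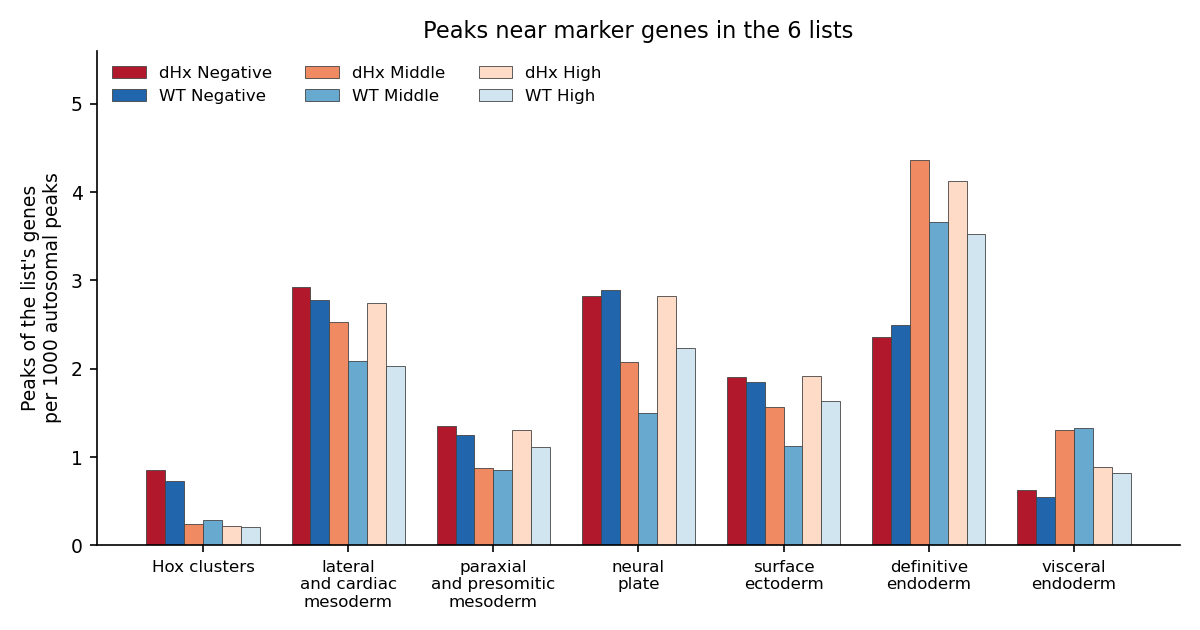
Peaks given to the genes of 7 marker lists per 1000 autosomal peaks, with 1 bar for each of the 6 deposited lists and no error bar because each list pools its samples. In the Hox clusters both Negative lists (0.850 in dHx and 0.728 in WT) stand above the RFP-positive lists (0.204 to 0.292), and for definitive endoderm they stand below.

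Open regions that both genotypes had in Negative cells and that no RFP-positive list held made up their largest share at the Hox genes, among the 17 gene lists examined. Of 25107 dHx Negative peaks that were assigned to a gene and shared with WT Negative cells, 2464 (9.81%) overlapped no peak of the RFP-positive lists; counted from the WT Negative side it was 2523 of 25247 (9.99%). For the Hox clusters it was 12 of 18 shared dHx Negative peaks (66.7%, interval 41.0 to 86.7) and 11 of 17 WT Negative peaks (64.7%, 38.3 to 85.8). For lateral and cardiac mesoderm it was 16 of 79 (20.3%) in dHx Negative and 14 of 78 (17.9%) in WT Negative cells, and for the neural plate 16 of 76 (21.1%) and 17 of 76 (22.4%) in the same order. For definitive endoderm it was 2 of 61 in dHx Negative and 2 of 60 in WT Negative cells. The epiblast list had 3 of 59 (5.08%, interval 1.06 to 14.1) in each of the 2 lists. That was below the share over all genes, which its interval holds. The node and notochord list, whose tissues also need FoxA2, had 8 of 47 (17.0%) in dHx Negative and 9 of 48 (18.8%) in WT Negative cells. These regions were ordered by their dHx Negative score alone. Among the strongest in that order was one of 423 bp at chr17:26831279-26831701, 6.96 kb from Nkx2-5, a cardiac homeobox gene. Its scores were 16.8 in dHx Negative and 9.21 in WT Negative cells. A region of 688 bp inside Hand1 (chr11:57831573-57832260) scored 14.5 in dHx Negative and 5.09 in WT Negative cells. A region 72.7 kb from Cdh5, the cadherin of endothelial junctions, scored 16.8 in dHx Negative and 12.6 in WT Negative cells. At these loci the Negative cells of dHx and WT embryos thus shared open regions that the RFP-positive lists lacked.

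Most strong open regions of dHx Negative cells were also open in WT Negative cells, and the reverse. In the dHx Negative list 21036 of 48244 peaks (43.6%, interval 43.2 to 44.0) had no WT Negative peak. In the WT Negative list 11096 of 38439 peaks (28.9%, 28.4 to 29.3) had no dHx Negative peak. Among the strongest 20000 peaks of each list, 3303 dHx peaks (16.5%, 16.0 to 17.0) were absent from the whole WT list and 2476 WT peaks (12.4%, 11.9 to 12.8) from the whole dHx list. The scores at ranks 20000 and 20001 were equal, at 8.19 in the dHx list and 6.07 in the WT list, so the limit divides tied peaks.

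The gap between the genotypes moved with the lengths of the lists. Shared peaks were nearly as many in the dHx Negative list (27208) as in the WT Negative list (27343). Lists of equal length must then have nearly equal unshared shares, so cutting them to a common length does not compare the genotypes. When the dHx Negative list was cut to its strongest 38439 peaks and both lists were matched against each other, 35.4% of dHx Negative peaks (34.9 to 35.9) and 34.6% of WT Negative peaks (34.1 to 35.1) were unshared. Cut at the same fold over the fitted background, the dHx list kept 38691 peaks, and the shares were 35.6% in dHx and 34.4% in WT Negative cells. The genotype-only peaks were weak and narrow. Their median score was 3.74 against 11.2 for shared peaks in the dHx list, and 4.16 against 8.13 in the WT list. Their median width was 317 bp against 541 bp for shared peaks in the dHx list, and 305 bp against 501 bp in the WT list. They also lay inside a gene less often, at 47.7% against 64.0% in the dHx list and 50.9% against 63.5% in the WT list. In the weakest 10% of a list 78.3% of dHx Negative and 61.8% of WT Negative peaks were unshared, and in the strongest 10% it was 3.79% and 3.51% in the same order.

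**Figure D2:**
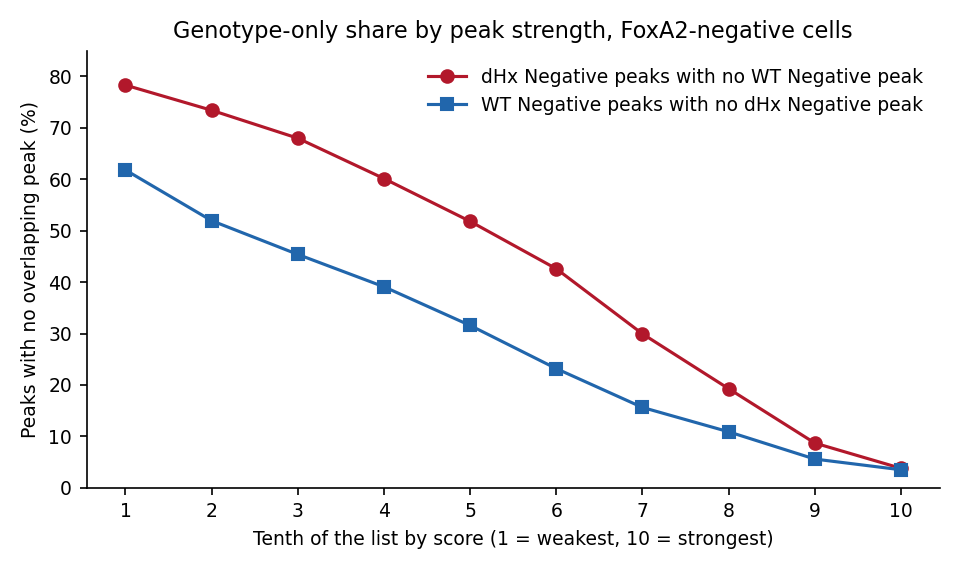
Share of peaks with no overlapping peak in the other genotype's Negative list (percent, y axis) for each 10% of a list ordered by the authors' score (x axis). Both curves fall steadily and nearly meet in the strongest 10%, at 3.79% for dHx and 3.51% for WT.

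Most promoters with a peak in 1 genotype had a peak in the other too. Promoter windows of 250 bases before to 50 after the start were taken from RefSeq (GRCm38.p6) for 16457 genes with 20085 promoters. Of these genes, 55.3% had a promoter peak in dHx Negative cells and 51.1% in WT Negative cells. A promoter peak was present in both genotypes for 7863 genes, in dHx Negative alone for 1242 (13.6% of those open in dHx), in WT Negative alone for 544 (6.47% of those open in WT) and in neither for 6808. At Middle the counts were 986 for dHx alone and 860 for WT alone, and at High 942 and 674 in the same order. Of 262 list genes with a promoter window, 141 had a promoter peak in both Negative lists, 20 in dHx alone and 13 in WT alone. In the blood and endothelium list the promoters of Kdr, Tal1 and Tek had a peak in dHx Negative cells alone and none had one in WT Negative cells alone; 8 of its genes had one in both and 12 in neither. Kdr encodes a VEGF receptor that marks endothelial and blood precursors, Tal1 a factor needed for blood formation and Tek an angiopoietin receptor. Their promoter scores lay near the median of the dHx Negative list (6.30), at 8.19 for Kdr, 7.23 for Tal1 and 6.30 for Tek. The Kdr promoter had a peak in all 4 RFP-positive lists, the Tal1 promoter in dHx Middle and the Tek promoter in none. On the WT side, Cpn1, a secreted carboxypeptidase gene on the endoderm list, scored 9.21 and Sp5, a Wnt target of the streak, 8.13, and both promoters had a peak in all 4 RFP-positive lists.

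These promoters are printed because their peak was listed in 1 genotype alone, with Foxa2 as the locus that had a peak in both. They are RefSeq GRCm38.p6 sequences on the strand of the gene, 5′ to 3′, and capitals mark a forkhead motif. The letters searched on both strands were TGTTTAC, a form that many forkhead factors bind, and its variants TATTTAC and also TGTTTGC, which do not overlap each other in the printed windows. The windows are Foxa2 at chr2:148045899-148046198 (minus strand), Kdr at chr5:75978406-75978705 (minus), Tal1 at chr4:115056176-115056475 (plus), Tek at chr4:94739039-94739338 (plus), Cpn1 at chr19:43986471-43986770 (minus) and Sp5 at chr2:70474673-70474972 (plus).
Foxa2: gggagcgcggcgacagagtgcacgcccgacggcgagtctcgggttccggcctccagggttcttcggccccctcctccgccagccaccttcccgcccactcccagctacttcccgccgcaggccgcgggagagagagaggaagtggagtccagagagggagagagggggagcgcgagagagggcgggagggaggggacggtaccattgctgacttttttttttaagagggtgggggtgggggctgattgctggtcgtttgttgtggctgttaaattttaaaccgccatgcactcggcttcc
Kdr: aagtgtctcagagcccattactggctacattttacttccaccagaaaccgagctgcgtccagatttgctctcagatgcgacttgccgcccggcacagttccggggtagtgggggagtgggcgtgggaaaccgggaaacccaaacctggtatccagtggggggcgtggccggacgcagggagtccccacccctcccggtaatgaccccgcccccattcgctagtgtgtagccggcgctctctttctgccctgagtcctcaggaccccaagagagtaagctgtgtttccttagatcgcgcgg
Tal1: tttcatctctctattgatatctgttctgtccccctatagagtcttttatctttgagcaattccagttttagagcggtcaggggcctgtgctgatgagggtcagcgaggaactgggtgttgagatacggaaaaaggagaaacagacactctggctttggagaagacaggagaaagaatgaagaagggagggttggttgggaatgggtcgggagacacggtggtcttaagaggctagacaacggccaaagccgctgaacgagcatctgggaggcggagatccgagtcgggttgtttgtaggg
Tek: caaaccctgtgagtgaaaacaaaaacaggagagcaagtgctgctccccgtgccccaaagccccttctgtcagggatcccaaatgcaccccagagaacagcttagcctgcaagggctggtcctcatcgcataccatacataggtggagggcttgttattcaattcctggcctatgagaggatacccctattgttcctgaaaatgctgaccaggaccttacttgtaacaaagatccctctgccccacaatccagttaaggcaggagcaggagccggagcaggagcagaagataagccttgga
Cpn1: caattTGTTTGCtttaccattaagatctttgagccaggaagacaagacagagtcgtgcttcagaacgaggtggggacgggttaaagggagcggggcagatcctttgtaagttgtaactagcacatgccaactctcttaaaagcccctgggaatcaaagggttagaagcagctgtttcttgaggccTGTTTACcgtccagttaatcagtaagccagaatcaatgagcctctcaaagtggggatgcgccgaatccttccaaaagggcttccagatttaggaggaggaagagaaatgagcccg
Sp5: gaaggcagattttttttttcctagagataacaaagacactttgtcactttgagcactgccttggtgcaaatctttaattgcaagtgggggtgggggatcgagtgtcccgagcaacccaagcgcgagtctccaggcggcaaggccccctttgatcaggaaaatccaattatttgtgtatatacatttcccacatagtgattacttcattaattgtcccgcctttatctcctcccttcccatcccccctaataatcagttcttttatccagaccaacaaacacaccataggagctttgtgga

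Cpn1 held 2 of these motifs, and the other 5 windows held none. One of the motifs stood in 11.2% of all 16457 genes' promoters, in 8.53% of the 1242 open in dHx Negative alone, in 6.80% of the 544 open in WT Negative alone, in 8.72% of those open in both and in 14.9% of those open in neither. Of the 33 list genes whose promoter peak was in 1 genotype alone, 3 had a motif. A motif match describes letters in these windows and says nothing about binding.

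A missing peak does not show that a region was closed. The peak names are numbered along the genome, and 10.1% of the numbers in the dHx Negative list and 11.8% in the WT Negative list are missing, for a reason that was not given in the sources used here. At the places of 951 of the 3303 strong dHx-only peaks (28.8%) the WT numbering skips at least 1 number. For 588 of the 2476 strong WT-only peaks (23.7%) the dHx numbering does. Among strong shared peaks it was 11.9% in the dHx Negative list and 9.03% in the WT Negative list. Place here means the stretch between the other list's peaks on either side, so the same skipped number can count for several peaks. A longer stretch has more room for a skipped number. The lengths were not matched between unshared and shared peaks, so their shares cannot show whether skipped numbers go with unshared peaks. Unshared peaks with no skipped number at their place made up 11.8% of the strongest 20000 dHx Negative peaks and 9.44% of the WT ones. Of all peaks in the whole lists they made up 30.5% and 21.7% in the same order. These shares are of all peaks, including those at places with a skipped number.

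Genotype-only peaks of Negative cells overlapped peaks of RFP-positive cells less often than shared peaks did. In the whole lists 10612 dHx-only peaks (50.4%) and 5783 WT-only peaks (52.1%) overlapped no peak in the 4 RFP-positive lists, against 10.4% of shared dHx and 10.6% of shared WT Negative peaks. Of the 3303 strong dHx-only peaks, 949 (28.7%) overlapped no peak in the 4 RFP-positive lists and 423 (12.8%) overlapped a peak in all of them. Of the 2476 strong WT-only peaks, 888 (35.9%) overlapped none and 187 (7.55%) overlapped all 4. Of the strong shared peaks, 4.29% of the dHx and 5.43% of the WT Negative list overlapped none, and 64.8% of the dHx and 61.3% of the WT ones overlapped all 4. Both dHx-positive lists but no WT-positive list held a peak at 52 of the strong dHx-only peaks (1.57%), against 0.521% of strong shared dHx peaks. Both WT-positive lists but no dHx-positive list did so at 169 (5.12%), against 2.99% of shared ones. For the strong WT-only peaks, both dHx-positive lists alone held a peak at 25 (1.01%, against 0.519% of strong shared WT peaks) and both WT-positive lists alone at 152 (6.14%, against 3.53%). Of the strongest 20000 dHx Negative peaks, 83.5% were found in the WT Negative list, against 72.7% in the dHx Middle list and 70.9% in the dHx High list. Of the strongest 20000 WT Negative peaks, 87.6% were found in the dHx Negative list, 78.8% in the WT Middle list and 76.7% in the WT High list. In these lists, strong regions of Negative cells were thus found more often in the Negative list of the other genotype than in either RFP-positive list of their own. In the RFP-positive lists of the other genotype, 79.5% (WT Middle) and 77.6% (WT High) of the strong dHx Negative peaks were found. For strong WT Negative peaks it was 70.6% (dHx Middle) and 69.0% (dHx High). The longer WT-positive lists thus held more of the peaks of both genotypes than the dHx-positive lists. The lists searched differed in length, from 36070 to 48244 peaks, so these shares do not compare cell types alone.

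The direction of the whole-list difference at Negative was the opposite of that in RFP-positive cells. In Middle cells 30.9% of dHx peaks and 40.9% of WT peaks were unshared between the genotypes, and in High cells 30.5% of dHx peaks and 42.6% of WT peaks. The list lengths turned in the same way, with 37611 dHx and 44539 WT peaks at Middle and 36070 dHx and 44195 WT peaks at High. At each level the list with the higher fitted background had more peaks; the backgrounds were 0.786 in dHx Middle against 1.496 in WT Middle and 0.476 in dHx High against 0.879 in WT High. With the lists of a level cut to the same length, 35.3% of dHx Middle and 35.0% of WT Middle peaks were unshared, and 35.7% of dHx High and 35.3% of WT High peaks. At equal length the unshared share thus lay between 34.6% and 35.7% for both genotypes at all 3 levels, in cells without the tag signal as in cells with it. The match of dHx and WT within a level follows from the equal lengths, since shared peaks were nearly as many in both lists. That match therefore says nothing about a genotype difference. What part of the unshared share replicate samples of a genotype would show cannot be read from pooled lists.

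**Figure D3:**
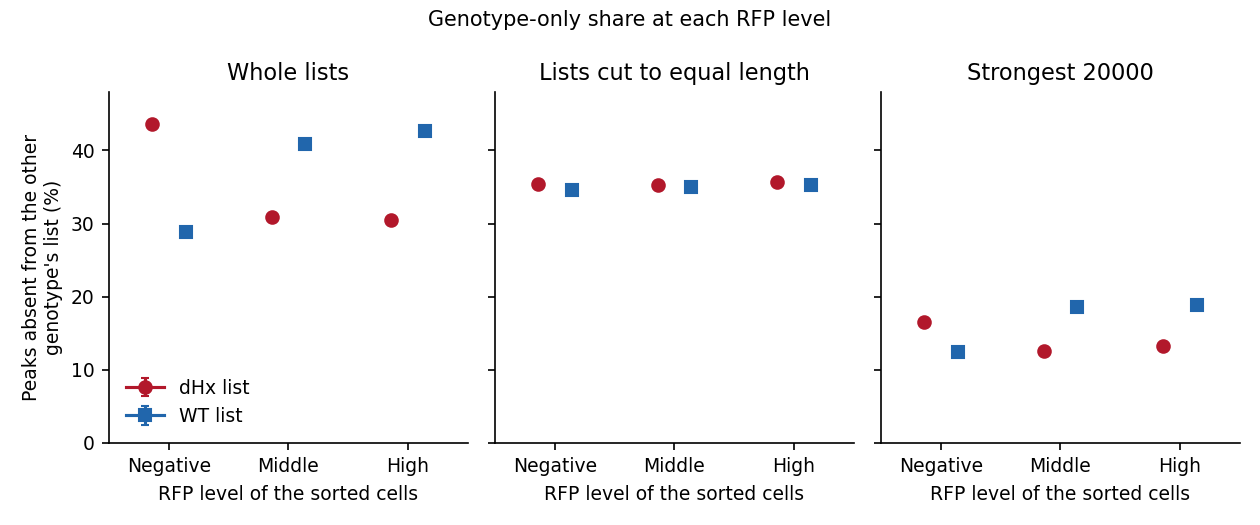
Percent of peaks absent from the other genotype's list at the same RFP level, for whole lists (left), lists cut to equal length (middle) and the strongest 20000 looked up in the whole other list (right); bars are 95% Clopper-Pearson intervals, mostly smaller than the symbols. In whole lists the dHx list is above the WT list at Negative (43.6% and 28.9%) and below it at Middle and High. At equal length the 6 values lie between 34.6% and 35.7%. There dHx and WT must nearly match, because shared peaks are nearly as many in both lists.

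For most lineages and pathways of the embryo the genotype-only shares lay near those of all genes. Over all peaks assigned to a gene, 42.5% of dHx Negative and 27.8% of WT Negative peaks were unshared, and of 15747 genes 6343 (40.3%) had more dHx-only than WT-only peaks and 3112 (19.8%) the reverse. Among the strongest 20000 peaks these shares were 15.6% in dHx and 11.6% in WT Negative cells. In all 17 lists the whole-list dHx-only share was the higher one, but at equal list length it was in 8 of the 17. It lay above that of all genes in 7 lists, and the interval of 15 lists held the value of all genes; for the WT-only share these counts were 8 and 14.

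**Figure D4:**
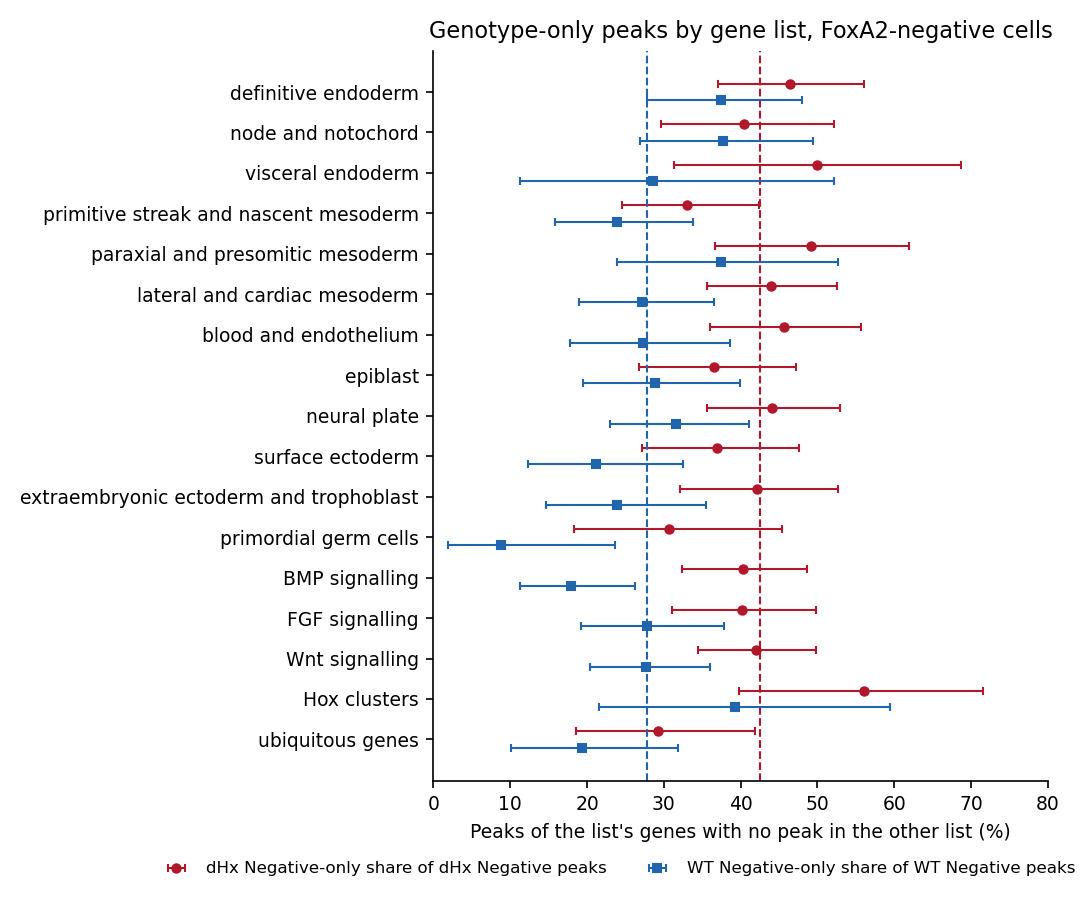
Percent of a list's peaks with no peak in the other genotype's Negative list, as dHx-only share (circles) and WT-only share (squares) with 95% Clopper-Pearson intervals; dashed lines give the shares over all assigned peaks, 42.5% for dHx and 27.8% for WT. Most intervals cross the line of their genotype, while those of the BMP and primordial germ cell lists lie below the WT line and that of definitive endoderm just above it. The primitive streak and ubiquitous lists lie below the dHx line.

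Foxa2 itself had 15 peaks in dHx Negative cells, 9 of them without a WT Negative peak, and 11 in WT Negative cells, 5 of them without a dHx Negative peak. None of these 14 unshared peaks was among the strongest 20000, and their scores ran from 2.24 to 6.07. The highest, a WT-only peak, scored the same as the limit of the WT list (6.07). It was left out only by the way tied peaks were divided. The 3 dHx and 4 WT peaks of Foxa2 that did rank among the strongest 20000 were all shared. The peak over its promoter, the largest of the locus at 1192 bp in dHx and 1036 bp in WT Negative cells, scored 14.5 in the dHx and 13.8 in the WT list and was present in all 6 lists. The locus was thus open at its promoter in cells sorted for absence of the tag signal, in both genotypes.

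Among endoderm and node genes, 53 of 114 peaks of the definitive endoderm list (46.5%) were dHx-only and 36 of 96 (37.5%, interval 27.8 to 48.0) WT-only, and 32 of 79 (40.5%) and 29 of 77 (37.7%) in the node and notochord list. At equal list length the definitive endoderm shares were 37.0% in dHx and 47.9% in WT Negative cells. The WT-only share of this list was 37.8% (28 of 74) with peaks counted up to 20 kb from a gene. It was 29.0% (63 of 217) with every gene within 100 kb counted. Among the strongest 20000 peaks it was 11.1% (4 of 36), beside 11.6% over all genes. Otx2, a homeobox factor of anterior tissue, had 4 dHx-only of 6 dHx Negative peaks and 3 WT-only of 5 WT Negative peaks. Its strongest dHx-only peak lay 59.9 kb away at chr14:48727519-48727733 with a score of 26.6 and was also found in WT Middle cells. Gata4, a zinc finger factor of endoderm and heart, had 4 of 7 and 2 of 4 in the same order. Emb, which encodes the cell surface protein embigin, leaned towards WT, with 2 dHx-only of 9 peaks and 6 WT-only of 13. Sox9 had 5 dHx-only of 12 peaks and 4 WT-only of 11. Gsc, a homeobox gene of the organizer, had 4 of 7 in each genotype. Nog, the gene of the BMP antagonist noggin, had 3 dHx-only of 7 peaks and 4 WT-only of 8. Cubn, an uptake receptor of the visceral endoderm, had 5 dHx-only of 7 peaks and 0 WT-only of 2.

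With peaks given to the closest gene, streak genes had a lower dHx-only share than all genes. In the primitive streak list 38 of 115 dHx Negative peaks (33.0%, interval 24.6 to 42.4) were dHx-only and 23 of 96 WT Negative peaks (24.0%) WT-only. With every gene within 100 kb counted, the dHx-only share was 40.1% (109 of 272). It then lay above that of all genes, as in 11 of the 17 lists. Eomes, a T-box factor of the streak, had 2 dHx-only of 12 peaks and 3 WT-only of 12. Axin2, a feedback target of Wnt signalling, had 7 dHx-only of 17 peaks and 1 WT-only of 10. Lef1, a nuclear partner of β-catenin, had 3 dHx-only of 10 peaks and 6 WT-only of 14. In the lateral and cardiac list 62 of 141 dHx Negative peaks (44.0%) were dHx-only and 29 of 107 WT Negative peaks (27.1%) WT-only. Tbx3 had 5 dHx-only of 10 peaks and 2 WT-only of 7, whereas Hand1 had 3 dHx-only of 4 and 5 WT-only of 6. Twist1 had 2 peaks in dHx Negative and 3 in WT Negative cells, and none overlapped the other genotype's. In the paraxial list 32 of 65 dHx Negative peaks (49.2%) were dHx-only and 18 of 48 WT Negative peaks (37.5%) WT-only. Of its genes, Pcdh8, a protocadherin of presomitic mesoderm, had 4 dHx-only of 8 peaks and 0 WT-only of 4. Uncx, a homeobox gene of the somites, had 1 dHx-only of 3 peaks and 5 WT-only of 6.

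Blood and endothelial genes had 48 dHx-only of 105 peaks (45.7%) and 21 WT-only of 77 (27.3%), and among the strongest 20000 peaks 8 of 39 and 2 of 30 in the same order, beside 15.6% and 11.6% over all genes. Runx1, a factor needed for definitive blood formation, had 8 dHx-only of 12 peaks and 1 WT-only of 5. Its strongest dHx-only peak (chr16:92660783-92661246, inside the gene) scored 19.1 and was also present in WT High and WT Middle cells. In those RFP-positive lists Runx1 had more WT-only than dHx-only peaks, with 2 dHx-only and 7 WT-only at Middle and 2 dHx-only and 8 WT-only at High. Flt1, a VEGF receptor of endothelium, had 5 dHx-only of 15 peaks and 1 WT-only of 10.

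For the ectoderm, neural plate genes had 60 dHx-only of 136 peaks (44.1%) and 35 WT-only of 111 (31.5%). Meis2, a homeobox cofactor, had 7 dHx-only of 21 peaks and 1 WT-only of 15, and Pax2 had 7 dHx-only of 11 and 4 WT-only of 8. Dnmt3a, a de novo DNA methyltransferase on the epiblast list, had 8 dHx-only of 10 peaks and 4 WT-only of 6. Of the 8, 3 were among the strongest 20000, led by a peak 15.7 kb from the gene with a score of 16.8. Tfap2c, a factor of surface ectoderm, trophoblast and germ cells, had 3 dHx-only of 10 peaks and 0 WT-only of 6. Germ cell genes had 15 dHx-only of 49 peaks (30.6%) and 3 WT-only of 34 (8.82%, interval 1.86 to 23.7). The WT-only share of these genes was 14.7% (5 of 34) at equal list length and 19.3% (21 of 109) with every gene within 100 kb counted.

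In whole lists the BMP genes had a higher dHx-only than WT-only share, as all 17 gene lists did. They had 60 dHx-only of 149 peaks (40.3%) and 20 WT-only of 112 (17.9%, interval 11.3 to 26.2), beside 42.5% and 27.8% over all genes. Among the strongest 20000 peaks it was 9 of 61 (14.8%) dHx-only and 1 of 49 (2.04%) WT-only, beside 15.6% and 11.6% over all genes. At equal list length 36 of 114 dHx Negative peaks (31.6%) and 31 of 112 WT Negative peaks (27.7%) of these genes were unshared. Smad6, an inhibitor of BMP signalling, had 8 dHx-only of 17 peaks and 1 WT-only of 11, and Msx1, a BMP target, 5 dHx-only of 13 and 0 WT-only of 8. For FGF genes it was 45 of 112 (40.2%) dHx-only and 27 of 97 (27.8%) WT-only. The receptor Fgfr2 had 6 dHx-only of 10 peaks and 0 WT-only of 4. Its strongest dHx-only peak, at chr7:130266212-130266713 inside the gene, scored 15.6 and was present in all 4 RFP-positive lists, so WT Negative was the single list without it. Wnt genes had 71 dHx-only of 169 peaks (42.0%) and 38 WT-only of 137 (27.7%). The FGF and Wnt shares thus lay near those of all genes. Wnt11 had 6 dHx-only of 8 peaks and 1 WT-only of 4. Tcf7l1, which encodes a repressor of Wnt targets, had 6 dHx-only of 12 peaks and 0 WT-only of 6. Its strongest dHx-only peak scored 31.8 and spanned 1022 bp, and 1 number is skipped at its place in the WT list.

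In the Hox clusters 23 of 41 peaks (56.1%, interval 39.7 to 71.5) were dHx-only and 11 of 28 (39.3%, 21.5 to 59.4) WT-only. The Hoxa cluster had 10 peaks in dHx and 3 in WT Negative cells, while the Hoxd cluster had 8 in dHx and 9 in WT. Hoxd3 had 2 dHx-only of 4 peaks and 3 WT-only of 5. Of genes that all cells use, 19 of 65 peaks (29.2%, 18.6 to 41.8) were dHx-only and 11 of 57 (19.3%) WT-only.

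These gene counts rest on few peaks and on the longer dHx list. With the dHx list cut to the WT length, dHx-only minus WT-only peaks turned negative for Foxa2 (-1), Sox9 (-3), Pax2 (-4) and Smad6 (-2). Among the strongest 20000 peaks alone it was 1 for Nog, -1 for Axin2 and 1 for Lef1, each the reverse of its whole-list sign. The turn for Lef1 rests on how tied peaks at the limit were divided. Its highest WT-only peak scored 6.07, the limit of the WT list, and was left out. A WT-only peak of Nog with that score was kept. Among genes in no list, Cep128, a centriole gene outside the peak-dense windows, had 0 dHx-only of 1 peak and 7 WT-only of 8, of which 5 were strong.

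The 10 strongest dHx-only peaks outside dense windows scored 108.4 to 237.5, and 6 of them were under 400 bp wide. The first, of 381 bp at chr11:19851243-19851623, lay 72.8 kb from Spred2, an inhibitor of FGF signalling, and had a peak in all 4 RFP-positive lists. A peak of 2401 bp inside Akap9, a scaffold gene of the centrosome, scored 194.5 and was also in all 4. A peak of 792 bp inside Disc1 scored 158.6 and had a peak in dHx High and dHx Middle cells but in neither WT-positive list, with 1 number skipped at its place in the WT Negative list. The 10 strongest WT-only peaks scored 67.7 to 184.6, and 7 were under 400 bp. The first, of 228 bp at chr9:95425804-95426031, lay 18.5 kb from Chst2, a sulfotransferase gene, and no other list had it. In 4 of the 10 WT-only regions, against 1 of the 10 dHx-only regions, no RFP-positive list had a peak.

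Regions of gene families in many copies held part of the difference. In 22 bins of 1 Mb, which form 10 windows, at least 1 Negative list had over 100 peaks. They held 4695 dHx Negative peaks, 63.8% of them dHx-only, and 2603 WT Negative peaks, 31.0% of them WT-only; elsewhere the shares were 41.4% and 28.7% in the same order. In the zinc finger cluster at 175 to 178 Mb of chromosome 2 the dHx Negative list had 1035 peaks and the WT Negative list 338. In that at 145 to 148 Mb of chromosome 4 it was 176 in dHx and 468 in WT Negative cells, and WT had more at Middle (80 in dHx, 554 in WT) and High (59 in dHx, 240 in WT) too. By gene, Zfp970 on chromosome 2 had 82 dHx-only of 93 peaks and 1 WT-only of 16, Gm14410 had 74 of 89 and 0 of 15 in the same order, and Zfp978 on chromosome 4 had 2 of 22 and 71 of 91. With peaks counted up to 20 kb from a gene, dHx-only minus WT-only peaks was 16 in place of 81 for Zfp970, 18 in place of 74 for Gm14410 and -66 in place of -69 for Zfp978. Reads from near-identical copies may have been placed in either copy, so single genes here are uncertain, and whether the mixed strain background moves with these counts was not tested.

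**Figure D5:**
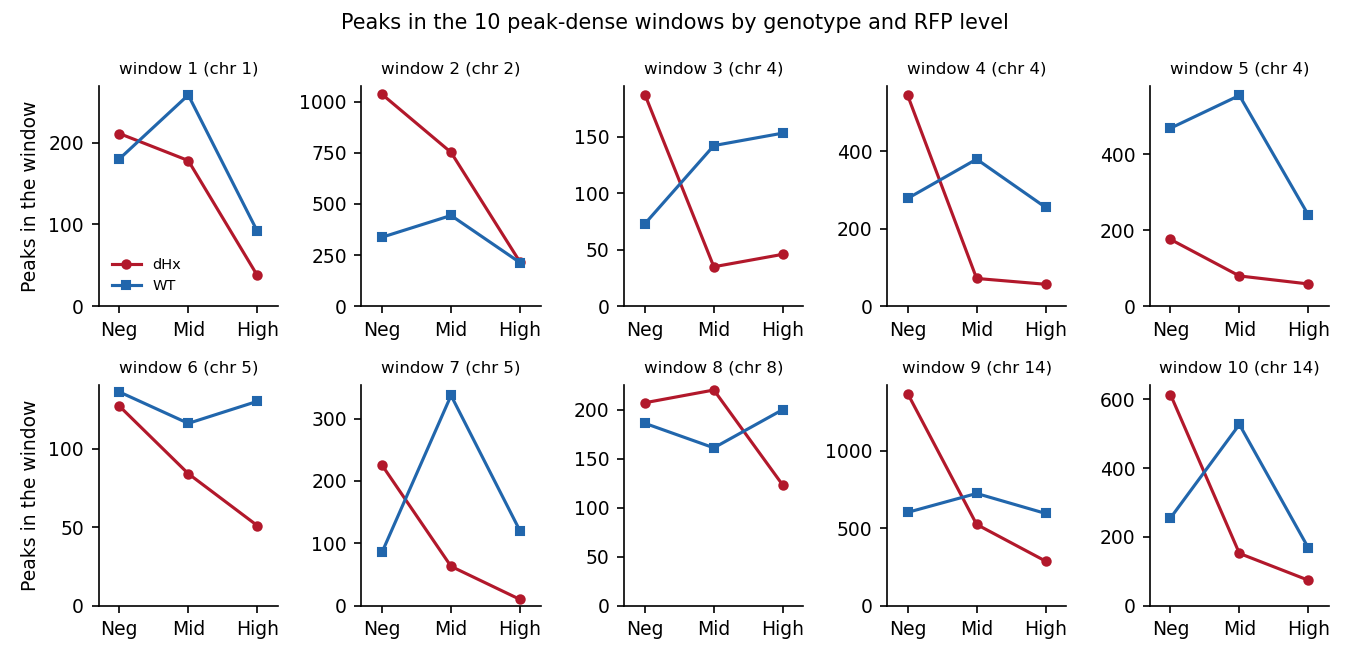
Number of peaks in each of the 10 windows dense in peaks (y axis, scale differs by window) in dHx and WT cells at Negative, Middle and High RFP (x axis). In window 5, the zinc finger cluster of chromosome 4, WT is above dHx at every level, and in window 2, that of chromosome 2, dHx is above WT at Negative and Middle.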

How the data were processed

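The authors deposited 1 peak list per group on mm10, and its peak names contain Pooled, Aligned, Filtered and unique, so it was taken as 1 list from the reads of both samples of a group. STAR 2.5.2a and MACS2 were used, per the submitters' processing notes, with roles and parameters not given in the sources used here. Column 5 as deposited was read as a −log10 p-value or q-value from its steps, which fit tail probabilities of a Poisson distribution, and which of the 2 it holds is not stated. Lines of equal chromosome, start and end were merged with the highest score, chromosomes 1 to 19 were kept, and overlaps, exact intervals and the background fit to the 40 lowest distinct scores were computed in Python 3.11.15 with numpy 2.4.6, pandas 2.3.3 and scipy 1.17.1. These steps were tested on simulated data. Genes and promoters came from RefSeq tables of GRCm38.p6, which is the mm10 assembly.

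The rule for named genes took Foxa2, from each of 17 lists up to 3 genes with the most dHx Negative-only and up to 2 with the most WT Negative-only peaks (at least 2 such peaks), the genes with the largest differences among the strongest 20000 peaks, and the 10 highest-scoring unshared peaks per direction outside dense bins. The members, lists and tests were chosen with earlier results of these data known, and the genes, promoters and shared regions printed were chosen after their values were seen. Peaks on X and Y were left out of the comparison. Other overlap rules, score limits, list lengths and gene distances were tried as alternatives.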

Additional observations from a re-analysis of the deposited data

Results flagged for a closer look

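The dHx list had 9805 more autosomal peaks than the WT list in Negative cells, but 6928 fewer in Middle and 8125 fewer in High cells. The fitted background was higher in the dHx list at Negative and in the WT list at Middle and High. This difference between RFP levels was not tested, since each group is 1 pooled list.

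The same turn appeared in 6 of the windows dense in peaks, also untested. There dHx Negative had more peaks than WT Negative, by 31 at 85 to 86 Mb of chromosome 1, by 114 at 42 to 43 Mb and 265 at 60 to 62 Mb of chromosome 4, by 139 at 94 to 96 Mb of chromosome 5, and by 767 at 3 to 8 Mb and 359 at 41 to 44 Mb of chromosome 14. In each of them dHx had fewer peaks than WT at Middle and at High.

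On the X and Y chromosomes, which the comparison left out, the dHx Negative list had 2180 peaks and the WT Negative list 1130. These X and Y peaks, not counted apart, were 4.32% of dHx and 2.86% of WT Negative peaks on these chromosomes and the autosomes. The order was the opposite at Middle, with 1510 in dHx (3.86%) and 4222 in WT (8.66%), and at High, with 1059 in dHx (2.85%) and 1494 in WT (3.27%). The sex of the embryos in each pool is not known and its part in this was not tested.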

How the results depend on the processing

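No paired analysis was possible because each group is 1 pooled list without values per replicate, and for the same reason no replicate could be left out. The unshared share, 43.6% of dHx and 28.9% of WT Negative peaks in whole lists and 16.5% and 12.4% of the strongest 20000, moved beyond its interval under most alternatives. Values follow as dHx and WT in whole lists, then dHx and WT in the strongest 20000. With 50% of either peak covered they were 45.9%, 31.6%, 17.5% and 13.6%. With peaks up to 250 bp apart counted as shared, the whole-list values were 42.3% and 27.5%. With X and Y kept they were 44.5% for the whole dHx list and 15.9% and 11.9% in the strongest; without dense bins, 41.4% for the whole dHx list and 13.1% for the strongest WT peaks. A score of at least 5 gave 38.6% and 26.8%, equal length 35.4% and 34.6%, and an equal fold over background 35.6% and 34.4%. Added after seeing the data, unshared peaks with no skipped number, as a share of all peaks, gave 30.5%, 21.7%, 11.8% and 9.44%. The strongest 5000 gave 3.92% in dHx and 3.74% in WT, the strongest 10000 gave 6.43% and 5.72%, and all ties kept gave 17.2% and 13.6%. The dHx share was the higher one in each of these settings, but at equal list length the whole-list shares must nearly match.

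With every gene within 100 kb, 11 in place of 7 lists had a dHx-only share above all genes. The share of a single list stayed within its interval in 95 of 136 values over the 4 gene settings. At equal length dHx-only minus WT-only peaks turned to -1 for Foxa2, -3 for Sox9, -4 for Pax2 and -2 for Smad6, and among the strongest 20000 to 1 for Nog, -1 for Axin2 and 1 for Lef1. The value for Lef1 rests on how tied peaks at the limit were divided. The causes were not tested. Read depth is unknown, so a missing peak was not detected and is not shown to be closed.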
